A study of Mus musculus with 12 samples.

Results

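The 10 genes described here encode the switch that carries a mouse oocyte into M phase: Cdk1, the B cyclins Ccnb1, Ccnb2 and Ccnb3, the inhibitory kinases Wee1, Wee2 and Pkmyt1, and the phosphatases Cdc25a, Cdc25b and Cdc25c. They were chosen by name. All 10 were among the 22801 genes of the metaphase II (MII, mature egg) values, and 2 of the 10, Wee1 and Cdc25c, were among the 3475 genes of the germinal vesicle (GV, arrested before maturation) values. The GV values covered genes that the submitters had selected by an unadjusted p under 0.05 and over 2-fold, so a gene missing there was not selected and has no value here.

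Conditional knockout oocytes (CKO) had the genotype Lsm14bfl/fl-Gdf9-Cre and controls (WT) the genotype Lsm14bfl/fl, so both carried floxed Lsm14b alleles and they differed by the Cre transgene. Gdf9-Cre is driven by an oocyte promoter that is active from early follicle stages, and the deletion therefore precedes most of oocyte growth. All females were C57BL/6 mice at postnatal day 35, each library came from a pool of 15 oocytes, and there were 3 libraries in each of the 4 groups of genotype and stage, with nothing said of whether the pools came from separate animals. Lsm14b encodes an RNA-binding protein of cytoplasmic ribonucleoprotein granules, and the design asks how the loss of Lsm14b alters oocyte RNA before and after meiotic maturation.

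Maturation-promoting factor is the complex of the kinase CDK1 with a B cyclin. In arrested oocytes the kinases of the WEE family, which in the mouse oocyte means mainly WEE2 (WEE1B) and MYT1, the product of Pkmyt1, hold CDK1 inactive by phosphorylating it, and CDC25 phosphatases remove those phosphates at the resumption of meiosis. Fully grown oocytes make little or no new RNA, so their transcripts are mostly those stored during growth.

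The residues that the WEE kinases phosphorylate and the CDC25 phosphatases dephosphorylate lie side by side near the start of CDK1. They are shown here at the level of the transcript, since they are the point at which the WEE kinases and CDC25 phosphatases act on CDK1. The stretch is codons 10 to 19 of mouse Cdk1 (chromosome 10, GENCODE M21 on GRCm38), 5′ to 3′, with the codons of the phosphorylated threonine and tyrosine, 14 and 15, in capitals.
Cdk1: attggagaaggtACTTACggtgtggtgtat

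Reads in the MII libraries numbered 38874759, 40530314 and 23077585 in CKO replicates 4, 2 and 3, against 93117615, 88494525 and 124872889 in WT replicates 1, 2 and 3, so every CKO library was shallower than every WT library. Depth did not limit the detection of any of the 10 genes at MII: the lowest count was 89 reads, for Cdc25c in WT replicate 3, and the highest 65851, for Wee2 in the same library. WT replicate 3 stood apart. Its rank correlation (Spearman, over 20388 genes) with each of the other 5 MII libraries was 0.847 to 0.877, where those 5 gave 0.899 to 0.940 among themselves. In this library 24.3% of all reads fell on CT010467.1, whereas the share was 6.56% to 11.8% elsewhere at MII, and CPM totals include them. The part of this in the Wee1 and Cdc25c differences was not tested. Results are therefore also given without it. Lsm14b itself was at 822, 982 and 920 normalized counts in CKO replicates 2, 3 and 4 at MII, against 10868, 10643 and 11641 in WT replicates 1, 2 and 3. At GV it was at 1436, 1601 and 1273 in CKO replicates 1, 2 and 4, against 30132, 18816 and 19845 in the WT replicates of the same numbers. All 10 oocyte markers examined were above 10 CPM (reads scaled to the library total) on average at MII, with a summed level of 13523 to 15260 CPM in CKO and 11329 to 13982 CPM in WT. Of 15 cumulus and granulosa markers 11 were listed, with a summed level of 55.0 to 81.5 CPM in CKO and 48.0 to 81.4 CPM in WT. The blood and immune markers summed to 3.63 to 3.73 CPM in CKO and 17.5 to 35.1 CPM in WT, with C1qb the 1 marker of that list above 10 CPM, and the part of this difference in the results below was not tested. At GV the authors' deposited table called 2 of 8 theca and stroma markers, 2 of 5 endothelial and 2 of 8 blood and immune markers, and no oocyte or cumulus marker. Beside this stood 12.9% of its 21462 tested genes, called in either direction. The direction of these marker calls is not given here, and nothing is read from their number.

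At MII, Wee1 was the 1 gene of the 10 that changed past an adjusted p of 0.05, and it was higher in CKO. The other 9 did not pass, and none was called lower. For comparison, limma called 1.51% of the 20388 genes tested, with 0.52% of all tested genes higher and 0.991% lower. All 10 genes passed the filter on low values. At an unadjusted p under 0.05, limma had 2 of the 10, Wee1 and Cdc25c, both higher in CKO. Beside this stood 16.0% of all tested genes, with 6.7% of all tested genes higher. The libraries of the genotypes did not overlap for 4 of the 10, Wee1, Cdk1, Ccnb2 and Cdc25b, all higher in CKO, beside 22.4% of all tested genes, 10.4% higher and the rest lower. Without WT replicate 3, limma called 2 of the 10, Wee1 and Ccnb2, beside 4.37% of all tested genes. The authors' deposited table had 1 of the 10, Wee1, at an adjusted p under 0.05 with over 2-fold. Beside this stood 10.5% of its tested genes, with 4.1% of all its tested genes higher. That table had 4 of the 10 at an unadjusted p under 0.05, Wee1, Cdk1, Ccnb2 and Cdc25b, all higher in CKO, beside 6.81% of genes that were higher. In either direction, 3101 of its 22801 genes had that p with over 2-fold, and the share without a fold limit was not counted. The median log2 difference of the 10 genes was 0.29, beside -0.11 for all genes tested. The log2 difference was above 0 for 6 of the 10 genes, among them Ccnb1 at 0.01, and below 0 for 4. The share of all tested genes above 0 was not counted, so nothing is read from these signs.

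**Figure D1:**
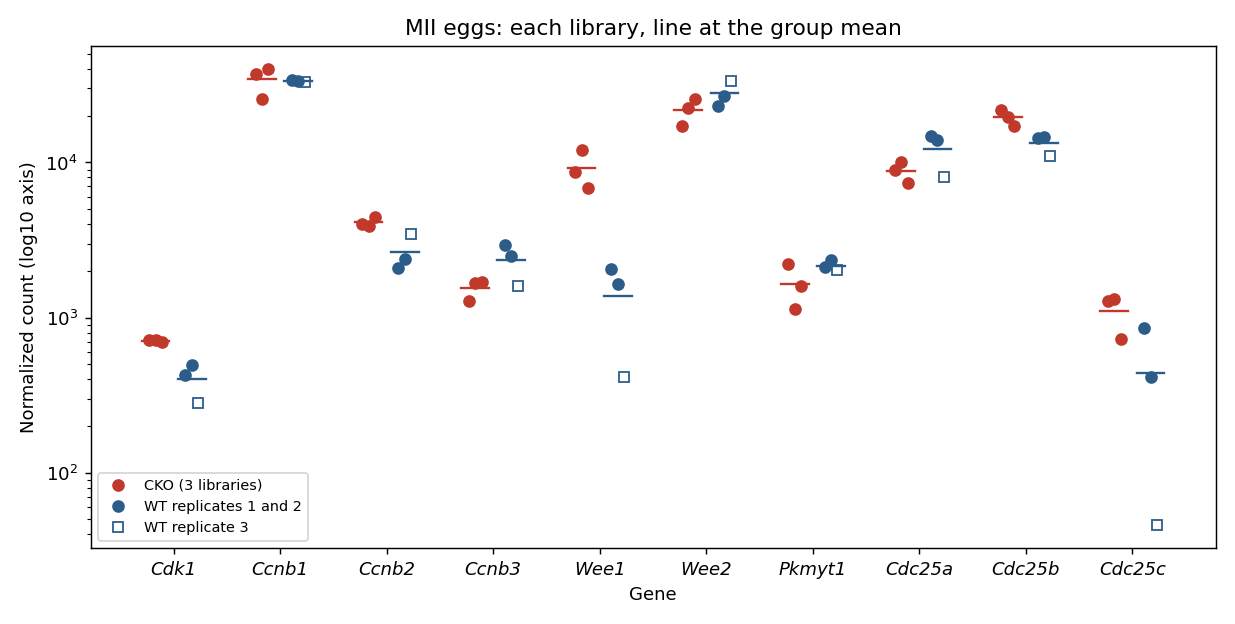
Normalized counts of the 10 genes in each MII library (log10 axis), CKO in red and WT in blue, with a line at each group mean and WT replicate 3 as an open square. Wee1 lies between 6862 and 12075 in CKO and between 411 and 2064 in WT, while Ccnb1 lies between 25769 and 40201 in CKO and between 33265 and 34119 in WT.

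Cdk1, the catalytic subunit, was at 717, 711 and 696 normalized counts in CKO replicates 2, 3 and 4, against 426, 494 and 281 in WT replicates 1, 2 and 3. Every CKO library was above every WT library, and the CKO libraries lay within a narrow range. Its log2 difference was 0.86 (SE 0.41, 95% interval -0.05 to 1.78, limma adjusted p = 0.339). Without WT replicate 3, the lowest library, the log2 difference was 0.63 (95% interval 0.21 to 1.04, limma adjusted p = 0.117). The authors' deposited table gave Cdk1 an unadjusted p of 0.0231 and an adjusted p of 0.128. The higher Cdk1 level in CKO therefore did not pass the threshold in either source.

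Among the B cyclins, which activate CDK1 and are degraded at the exit from each meiotic division, Ccnb1 was the most abundant and had nearly equal means in both genotypes. Ccnb1 was at 37431, 25769 and 40201 normalized counts in CKO replicates 2, 3 and 4, against 34119, 33344 and 33265 in WT replicates 1, 2 and 3. The WT libraries nearly coincided and the CKO libraries lay on both sides of them. Its log2 difference was 0.01 (SE 0.29, limma adjusted p = 0.987), and the 95% interval ran from a fold of 0.648 to a fold of 1.57. A processed copy, Ccnb1-ps, was listed at 587 ± 184 normalized counts in CKO and 511 ± 52.7 in WT (SD, n = 3 each), and reads of the gene and this copy may have been shared. Ccnb2, which can stand in for Ccnb1 in mouse oocytes, was at 4006, 3894 and 4452 in CKO replicates 2, 3 and 4, against 2092, 2394 and 3481 in WT replicates 1, 2 and 3. Again every CKO library was above every WT library, with WT replicate 3 nearest to the CKO libraries. The Ccnb2 log2 difference was 0.66 (SE 0.30, 95% interval -0.01 to 1.34, limma adjusted p = 0.317). Leaving out WT replicate 3 made it 0.88 (95% interval 0.53 to 1.22), with a limma adjusted p of 0.0452, past the threshold. A processed copy of Ccnb2 is annotated too and was not analysed here. Ccnb3, a cyclin of meiosis whose loss stops mouse oocytes at the first division, was at 1282, 1671 and 1696 normalized counts in CKO replicates 2, 3 and 4, against 2954, 2478 and 1607 in WT replicates 1, 2 and 3. Here WT replicate 3 fell among the CKO libraries. The Ccnb3 log2 difference was -0.56 (SE 0.34, 95% interval -1.32 to 0.19, limma adjusted p = 0.443), and without that library it was -0.82 (95% interval -1.32 to -0.31, limma adjusted p = 0.104).

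Wee1, the ubiquitous inhibitory kinase of CDK1, showed the largest difference of the 10 genes at MII. It was at 8623, 12075 and 6862 normalized counts in CKO replicates 2, 3 and 4, against 2064, 1645 and 411 in WT replicates 1, 2 and 3. The lowest CKO library was above the highest WT library, and WT replicate 3 was far below the other WT libraries. The mean was 9187 ± 2651 in CKO and 1373 ± 859 in WT (SD, n = 3 each), a ratio of means of 6.69. Its log2 difference was 2.998 (SE 0.56, 95% interval 1.76 to 4.24, limma adjusted p = 0.0336), and it ranked 197 of 20388 genes by p. The authors' deposited table gave a log2 fold change of 2.74 (SE 0.59) and an adjusted p of 0.000134 for Wee1. Without WT replicate 3 the log2 difference was 2.28 (95% interval 1.51 to 3.05, limma adjusted p = 0.0368). The direction held in every alternative run, but the limma adjusted p ranged from 0.000561 to 0.587 over them, and leaving out any single library other than WT replicate 3 put it above 0.05.

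Neither of the other kinases that inhibit CDK1 passed the threshold. Wee2, the oocyte-specific WEE kinase, was at 17261, 22612 and 25847 normalized counts in CKO replicates 2, 3 and 4, against 23110, 26775 and 33766 in WT replicates 1, 2 and 3. The groups overlapped, with the lowest value in CKO and the highest in WT. The Wee2 log2 difference was -0.35 (SE 0.29, limma adjusted p = 0.613), and its 95% interval ran from a fold of 0.499 to a fold of 1.23. Pkmyt1, whose product MYT1 phosphorylates CDK1 at membranes, was at 2222, 1139 and 1594 in CKO replicates 2, 3 and 4, against 2104, 2360 and 2024 in WT replicates 1, 2 and 3. The CKO libraries spread across a wider range than the WT libraries and overlapped them. The Pkmyt1 log2 difference was -0.44 (SE 0.34, limma adjusted p = 0.575), with a 95% interval from a fold of 0.437 to a fold of 1.24. Exons of Paqr4, on the opposite strand, cover 15.6% of the Pkmyt1 transcript, and Paqr4 was at 6129 ± 1260 in CKO and 8595 ± 3542 in WT (SD, n = 3 each), so Pkmyt1 values are uncertain where strand was not used in counting.

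Of the CDC25 phosphatases, which activate CDK1, none passed the threshold at MII. Cdc25b, the member that mouse oocytes need to resume meiosis, was at 21661, 19701 and 17275 normalized counts in CKO replicates 2, 3 and 4, against 14293, 14595 and 11034 in WT replicates 1, 2 and 3. All CKO libraries were above all WT libraries. The Cdc25b log2 difference was 0.56 (SE 0.27, 95% interval -0.04 to 1.16, limma adjusted p = 0.340), and without WT replicate 3 it was 0.43 (95% interval 0.04 to 0.82, limma adjusted p = 0.201). Cdc25a, which also contributes to meiotic resumption in the mouse, was at 8931, 10102 and 7347 in CKO replicates 2, 3 and 4, against 14849, 14002 and 8029 in WT replicates 1, 2 and 3. WT replicates 1 and 2 were above every CKO library and WT replicate 3 lay among them. The Cdc25a log2 difference was -0.44 (SE 0.32, 95% interval -1.15 to 0.26, limma adjusted p = 0.534), and it was -0.73 (95% interval -1.19 to -0.26, limma adjusted p = 0.111) without WT replicate 3. Cdc25c, whose loss mice tolerate with normal fertility, was at 1282, 1317 and 723 in CKO replicates 2, 3 and 4, against 862, 413 and 45.6 in WT replicates 1, 2 and 3. The WT libraries spread more widely than the CKO libraries, and WT replicate 1 lay inside the CKO range. The Cdc25c log2 difference was 2.07 (SE 0.91, 95% interval 0.03 to 4.11, limma adjusted p = 0.306), and 0.84 (95% interval -0.40 to 2.07, limma adjusted p = 0.402) without WT replicate 3. The authors' deposited table gave Cdc25c a smaller log2 fold change of 1.33 (SE 0.85) at MII. Its unadjusted p there was 0.119 and its adjusted p 0.350. Exons of Gm3550, a gene model not analysed here, lie on the opposite strand over 32.0% of the Cdc25c transcript.

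**Figure D2:**
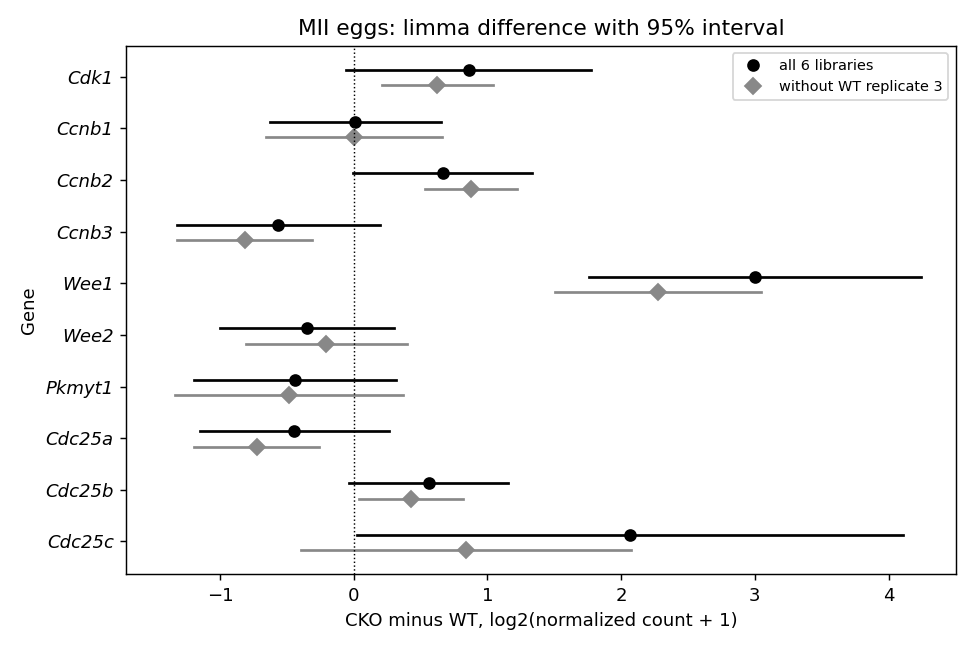
Difference between CKO and WT at MII on the log2(normalized count + 1) scale for the 10 genes, with 95% intervals from limma, for all 6 libraries (black) and without WT replicate 3 (grey). Wee1 is at 2.998 with all libraries and 2.28 without WT replicate 3, and Cdc25c is at 2.07 with all libraries and 0.84 without that library.

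The shares of Wee1 and Wee2 among the WEE kinases, and of Cdc25a and Cdc25b among the CDC25 phosphatases, did not overlap between the genotypes, while those of Pkmyt1 and Cdc25c did, and so did the family sums. These shares were computed from normalized counts divided by transcript length within each library, so they do not depend on how the libraries were scaled. Wee1 made up 26.3%, 29.6% and 17.1% of the WEE kinase transcripts in CKO replicates 2, 3 and 4, against 6.26%, 4.40% and 0.938% in WT replicates 1, 2 and 3. Wee2 made up 62.4%, 65.7% and 76.3% in the same CKO libraries, against 83.1%, 85.0% and 91.3% in the WT libraries. The Pkmyt1 share overlapped, at 4.68% to 11.4% in CKO and 7.74% to 10.7% in WT (exact two-sided permutation p = 0.4). Summed over the 3 WEE kinases, the level was 11092 ± 1299 normalized counts per kb in CKO and 11130 ± 1597 in WT (SD, n = 3 each). Per length, Wee2 was 2.37, 2.22 and 4.47 times as abundant as Wee1 in CKO replicates 2, 3 and 4, against 13.3, 19.3 and 97.3 times in WT replicates 1, 2 and 3.

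Cdc25a held 24.3%, 28.3% and 25.3% of its transcripts in CKO replicates 2, 3 and 4, against 44.6%, 43.8% and 38.1% in WT replicates 1, 2 and 3. Cdc25b held 69.2%, 64.8% and 70.0% in the CKO libraries, against 50.5%, 53.7% and 61.5% in the WT libraries. Both were separated between the genotypes, WT replicate 3 included. Cdc25c held 4.65% to 6.88% in CKO and 0.404% to 4.84% in WT, with overlap (exact two-sided permutation p = 0.2). The CDC25 sum was 9318 ± 1162 normalized counts per kb in CKO and 7919 ± 1839 in WT (SD, n = 3 each). Among the B cyclins, Ccnb2 held 14.6%, 19.2% and 14.96% in CKO replicates 2, 3 and 4, against 8.69%, 10.1% and 14.2% in WT replicates 1, 2 and 3, which left only a small gap between the groups. The B cyclin sum was 16877 ± 3217 normalized counts per kb in CKO and 15740 ± 244 in WT (SD, n = 3 each). For the 5 shares without overlap (Wee1, Wee2, Cdc25a, Cdc25b and Ccnb2) the exact two-sided permutation test gave p = 0.1, the smallest that 3 against 3 libraries allow, and 0.18 after Benjamini-Hochberg adjustment over the 9 shares. Shares within a family are not independent, since they sum to the whole.

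**Figure D3:**
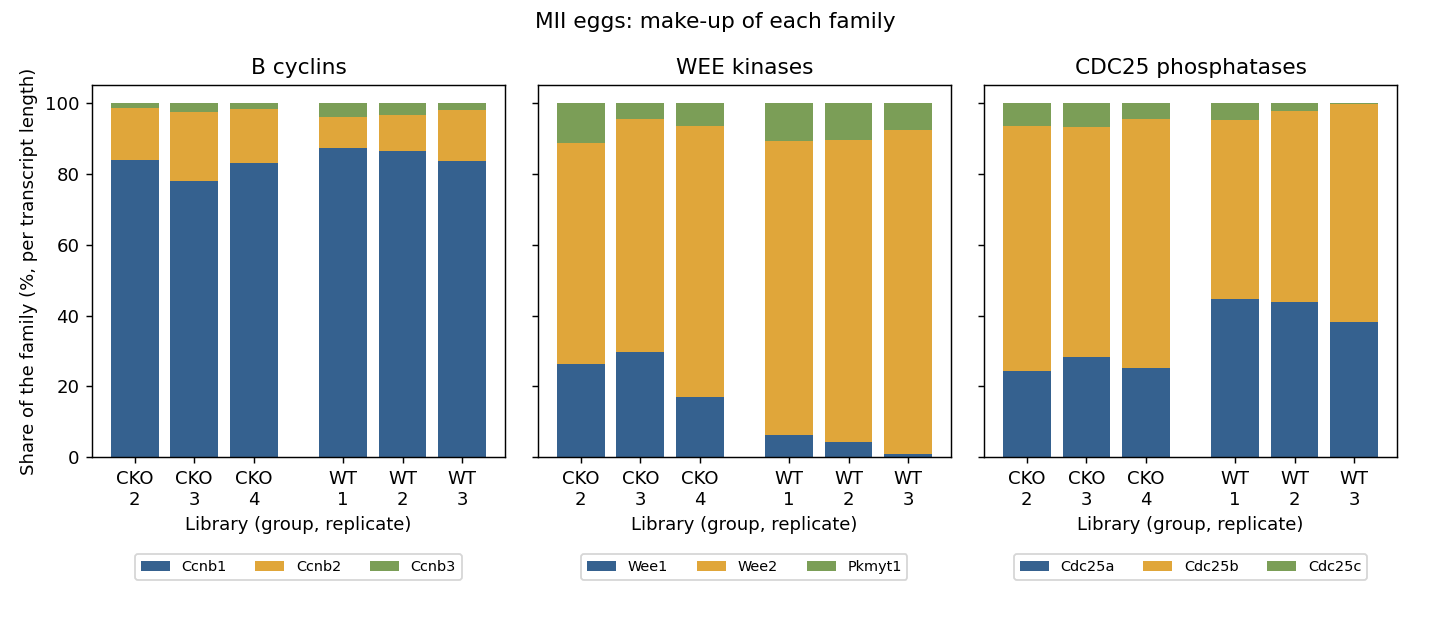
Stacked bars of each member's share of its family (percent, per transcript length) in the 3 CKO and 3 WT libraries at MII, which sum to the whole in every bar. The Wee1 part is 17.1% to 29.6% in CKO and 0.938% to 6.26% in WT, and the Cdc25a part is 24.3% to 28.3% in CKO and 38.1% to 44.6% in WT.

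Ordered by level per transcript length, Ccnb1 came first in both genotypes at MII, at 13848 ± 3077 normalized counts per kb in CKO and 13490 ± 189 in WT (SD, n = 3 each). Wee2 came second, at 7596 ± 1504 in CKO and 9668 ± 1877 in WT, and Cdc25b came next, at 6328 ± 711 in CKO and 4308 ± 639 in WT (SD, n = 3 each). Wee1 stood in rank 5 in CKO, at 2687 ± 776 normalized counts per kb, where its libraries overlapped those of Ccnb2 above it and of Cdc25a below it, and in rank 8 in WT, at 402 ± 251, where they overlapped those of Ccnb3 above it and of Cdc25c below it (SD, n = 3 each). Cdk1 was last of the 10 in both, at 162 ± 2.57 normalized counts per kb in CKO and 91.5 ± 24.9 in WT (SD, n = 3 each). Of the other neighbours, Wee2 and Cdc25b overlapped in CKO, as did Pkmyt1 with Cdc25c and Cdc25c with Ccnb3, while in WT Cdc25b overlapped with Cdc25a, Cdc25a with Ccnb2, and Cdc25c with Cdk1. The Cdk1 reference transcript has a long 3′ untranslated region (3352 of 4375 bases), and whether oocytes use this whole form was not tested.

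At GV, both members with values were higher in CKO. Wee1 was at 9244, 7013 and 11355 normalized counts in CKO replicates 1, 2 and 4, against 4271, 2251 and 2259 in the WT replicates of the same numbers. All CKO libraries lay above all WT libraries, and WT replicate 1 was above the other WT libraries. The mean was 9204 ± 2171 in CKO and 2927 ± 1164 in WT (SD, n = 3 each), a ratio of means of 3.14, and the authors' deposited table gave a log2 fold change of 1.65 (SE 0.29) and an adjusted p of 1.79e-07. Cdc25c was at 2076, 1993 and 2012 in CKO replicates 1, 2 and 4, against 1030, 1053 and 843 in the WT replicates of the same numbers. The CKO libraries were tightly grouped at about 2.08 times the WT mean. The authors' deposited table gave Cdc25c a log2 fold change of 1.06 (SE 0.18) and an adjusted p of 9.29e-08, and this fold is only just inside the 2-fold at which genes entered that table. With WT replicate 4 left out, the difference of mean log2 values was 0.96. Of the 21462 genes whose test is implied by the adjusted p-values of the authors' deposited table at GV, 12.9% were called by adjusted p (under 0.05) and fold (over 2), 4.96% higher and 7.89% lower.

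**Figure D4:**
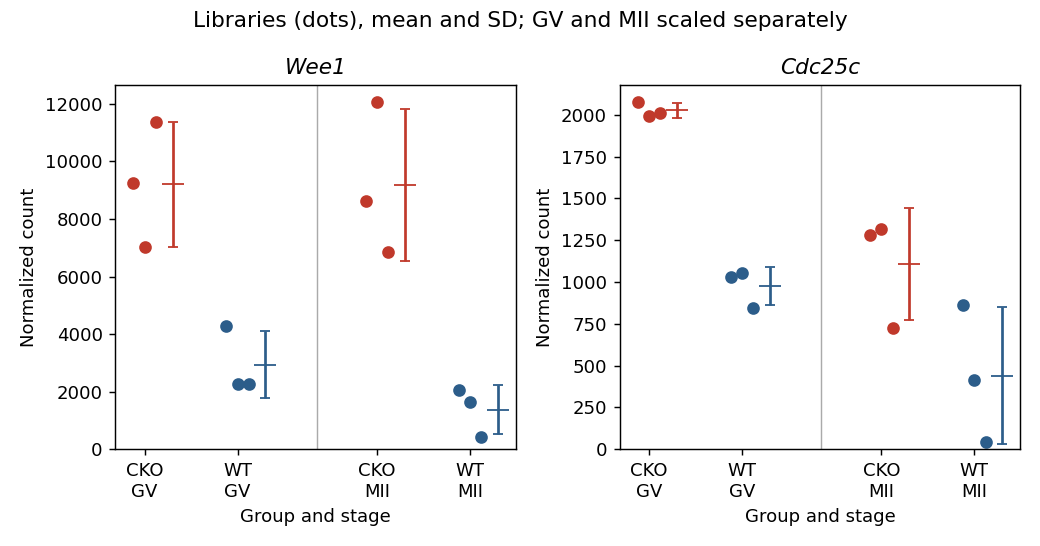
Normalized counts of Wee1 (left) and Cdc25c (right) in each library, CKO in red and WT in blue at each stage, with mean and SD beside the dots and GV and MII scaled separately. Wee1 is above WT in every CKO library at both stages, while the Cdc25c groups are apart at GV and overlap at MII.

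The same direction was thus seen for Wee1 at both stages, with ratios of means of 3.14 at GV and 6.69 at MII. The MII ratio includes WT replicate 3, the lowest library for Wee1. The Wee1 log2 difference at MII was 2.998 with that library and 2.28 without it. Whether the ratio of CKO to WT differs between the stages was not tested. No model was fitted at GV, and the GV values cover only genes selected at over 2-fold. For Cdc25c the ratio of means was 2.08 at GV and 2.51 at MII, where it was not called. WT replicate 3 was the lowest MII library for Cdc25c too, and the log2 difference went from 2.07 to 0.84 without it. In pools of oocytes, a lower level in every oocyte and the loss of a transcript from some oocytes of the pool cannot be told apart.

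Of 65 other genes of the pathway, in 7 lists, 62 were tested at MII, and 1 rose and 2 fell in CKO (limma adjusted p under 0.05), with a median log2 difference of -0.07. The same test called 1.51% of all 20388 genes, or 308, so these 3 genes are described singly and nothing is read from their number. The list of ubiquitin ligases that turn over B cyclins, WEE1 or CDC25A, inhibitors included, had 7 tested genes. Fbxo5, the gene of EMI1, an inhibitor of the anaphase-promoting complex, was the 1 called among them. It was at 4768, 5482 and 5609 normalized counts in CKO replicates 2, 3 and 4, against 1885, 1947 and 1295 in WT replicates 1, 2 and 3 (log2 difference 1.65, limma adjusted p = 0.0298). Fbxo43, of the same list, went the other way and was not called. It was at 1904, 2666 and 3117 in CKO replicates 2, 3 and 4, against 5008, 6876 and 16862 in WT replicates 1, 2 and 3. The Fbxo43 log2 difference was -1.73 (limma adjusted p = 0.0883), and -1.22 (limma adjusted p = 0.102) without WT replicate 3. Cdk7, the catalytic subunit of the kinase that activates CDK1, was the 1 called among 5 genes of that kinase and the CKS proteins, at 3501, 4433 and 4946 in CKO replicates 2, 3 and 4, against 13548, 12589 and 10041 in WT replicates 1, 2 and 3 (log2 difference -1.49, SE 0.28, limma adjusted p = 0.0337). Every CKO library was thus below every WT library for Cdk7. Ppp1cc, a catalytic subunit of a phosphatase that opposes CDK1, was the 1 called among 13 genes of that list, at 485, 522 and 769 in CKO replicates 2, 3 and 4, against 2617, 2118 and 2655 in WT replicates 1, 2 and 3 (log2 difference -2.08, limma adjusted p = 0.0246). In the same list Ppp1ca went the other way, at 637 ± 32.4 normalized counts in CKO and 214 ± 29.4 in WT (SD, n = 3 each). Its limma adjusted p was 0.107 with all libraries and 0.0386 without WT replicate 3. Ppp1cb had a log2 difference of -0.44 (limma adjusted p = 0.753). None of 9 other CDK and cyclin genes, 3 CDK inhibitor genes, 18 upstream kinase genes or 7 genes of 14-3-3 proteins was called. Without WT replicate 3, limma called 2 higher and 4 lower, beside 4.37% of all genes. Limma-voom on recovered reads called 0 of the 62, with 13 at an unadjusted p under 0.05, beside 3103 of all 20388 genes. With any 1 of the other 5 libraries left out, limma called 0 of them, with 10 to 13 at an unadjusted p under 0.05.

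At GV the authors' deposited table called 2 of the 65 genes higher and 4 lower, and the other 59 were not called. It called 12.9% of the 21462 genes it tested, so 6 of 65 is no more than the share over all genes. Ccnh, the cyclin partner of CDK7, was at 3232 ± 542 normalized counts in CKO and 1542 ± 374 in WT, and the D-type cyclin gene Ccnd2 at 5271 ± 678 in CKO and 2448 ± 563 in WT (SD, n = 3 each). The phosphatase genes Cdc14a and Cdc14b were lower, at 371 ± 98.3 and 821 ± 157 in CKO, against 1784 ± 175 and 2135 ± 656 in WT (SD, n = 3 each). Cdk6, a G1 kinase gene, was at 433 ± 202 in CKO and 1059 ± 487 in WT, and Rps6ka2, of the RSK kinases, at 87.7 ± 67.2 in CKO and 311 ± 146 in WT (SD, n = 3 each). The Rps6ka2 groups overlapped at GV, with 161 in CKO replicate 1 and 145 in WT replicate 2. Those of Cdk6 were barely apart at GV, with 662 in CKO replicate 4 and 681 in WT replicate 4. The log2 fold changes of these 6 genes in the authors' deposited table ranged from -2.27 for Cdc14a (adjusted p = 2.08e-15) to 1.11 for Ccnd2 (adjusted p = 3.62e-06). At MII, Ccnh had 212, 203 and 360 normalized counts in CKO replicates 2, 3 and 4, against 42.4, 95.7 and 23.1 in WT replicates 1, 2 and 3 (log2 difference 2.42, limma adjusted p = 0.163). The groups of Ccnd2, Cdk6, Cdc14a and Rps6ka2 also did not overlap at MII, each in its GV direction, while those of Cdc14b overlapped. Of all tested genes, 22.4% were without overlap in either direction, 10.4% higher in CKO and the rest lower. Ccnd2 was so low at MII that its groups were barely apart, at 6.89 normalized counts in CKO replicate 4 and 6.67 in WT replicate 3. Cdk6 was at 0 in CKO replicate 4. None of the 6 was called by limma at MII with all libraries, where the adjusted p was 0.0871 for Rps6ka2 and higher for the others. Rps6ka2 was at 0 in all 3 CKO libraries and at 53.0, 105 and 10.3 normalized counts in WT replicates 1, 2 and 3, and without WT replicate 3 its limma adjusted p was 0.0346.

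The genes whose pattern over the 6 MII libraries was most like that of Wee1 were Tlr8, Mlxip and Ssh2, with Pearson correlations of 0.999, 0.998 and 0.998 of log2(normalized count + 1) among 6428 genes of at least 10 CPM, and 267 of these had a correlation over 0.95. These values share the libraries, their depth and the group difference. Tlr8, a gene of innate immunity, was at 1316, 2152 and 1204 normalized counts in CKO replicates 2, 3 and 4, against 352, 272 and 64.6 in WT replicates 1, 2 and 3 (limma adjusted p = 0.0513). That is 15.3% to 17.8% of the Wee1 value in every one of the 6 libraries. Mlxip, a transcription factor gene, followed the same order of libraries within a narrow range, with means of 9738 in CKO and 7361 in WT (limma adjusted p = 0.461). Ssh2, a cofilin phosphatase gene, had means of 8627 in CKO and 2629 in WT (limma adjusted p = 0.0475).

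Stored oocyte mRNAs are often controlled through cytoplasmic polyadenylation elements (CPE), U-rich sites near the 3′ end that the protein CPEB binds. The letters TTTTAT and TTTTAAT were searched on the transcript strand in the last 150 bases of 1 principal transcript per gene (GENCODE M21, GRCm38). They were found in 3 of the 9 members whose 3′ untranslated region is that long, Ccnb1, Ccnb3 and Wee2, and in 23.5% of 18221 genes. Pkmyt1 has a shorter region and no match in it, and Wee1 and Cdc25c, the members with values at both stages, have no match in this window. The match nearest the end of each transcript is shown in capitals, to place the members with such letters beside the values above. It ends 137 bases before the transcript end in Ccnb1 (chromosome 13), 62 in Ccnb3 (chromosome X) and 12 in Wee2 (chromosome 6). The poly(A) signal (AATAAA or ATTAAA) nearest the end ends 18 bases before it in Ccnb1, 14 in Ccnb3 and 20 in Wee2. The Wee2 match shown thus lies past its signal, and those of Ccnb1 and Ccnb3 lie before theirs. Wee2 has 2 matches in the window, of which only this one is shown.
Ccnb1: ttgctgTTTTAATttatacatctgatatca
Ccnb3: tcttgaaattacTTTTATgaaagaagagaa
Wee2: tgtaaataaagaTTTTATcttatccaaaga
None of these 3 genes was called at MII, with log2 differences of 0.01, -0.56 and -0.35. A match of letters is no evidence of binding, and no match says only that these letters are not in the window.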

How the data were processed

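RNA of pools of 15 mouse oocytes was sequenced with standard Illumina libraries from total RNA, per the labels' protocols. The sources used here name no aligner, build, annotation or strand setting, so overlapping genes and near-identical copies are uncertain. The authors deposited 1 table per stage with a log10 value, log10(normalized count + 1), for each gene and library. Per the file headers each table also holds the authors' mean signal (the mean normalized count), log2 fold change, its standard error, a test score, p-value and adjusted p-value. The deposited mean equalled the library mean after undoing the log10 and subtracting 1, which fixed the unit. Every value was a whole multiple of a constant per library (100% within 0.05 of a whole number), so reads were recovered and CPM computed. P-values measure only the spread between pools, which may be technical.

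Because the unit was not raw counts, the 6 MII libraries were compared by genotype with limma 3.58.1 (R 4.3.3, with its intensity trend) on the scale log2(normalized count + 1), for 20388 genes with a mean of at least 1, with Benjamini-Hochberg adjustment over them. Such fold changes can understate changes of low genes. No model was fitted at GV, where genes were selected; the authors' deposited values are given. The fit was tested on simulated data. Transcript lengths and 3′ ends are those of GENCODE M21. The genes named were the 10 members, pathway genes past the threshold and the 3 genes most correlated with a called member. Members and lists were chosen with earlier results of these data known. Alternatives were another pseudocount, other filters, library size or TMM scaling, limma-voom on recovered reads, array weights, thinned reads, leaving out each library, and the replicate number as a block; shares from reads not divided by length were added after the data were seen.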

Additional observations from a re-analysis of the deposited data

How the results depend on the processing

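Of the 10 genes, 1 was called at MII. No gene was called with a pseudocount of 0.1, with reads thinned to equal size factors or with the replicate block (0 calls each), 3 were called with array weights (Wee1, Ccnb2 and Cdc25a), and 0 to 2 were called when a library was left out, the 2 being Wee1 and Ccnb2 without WT replicate 3. For Wee1 the limma adjusted p was 0.0522, 0.0618 and 0.587 in the first 3 of these fits, and the log2 difference ranged from 2.28 to 3.44 with a library left out. Over all genes limma called 308 (106 higher and 202 lower). The median log2 difference of all genes was -0.11 in that fit and 0.02 in limma-voom on recovered reads, which called 171 (91 higher and 80 lower). Array weights called 3190 (15.6% of genes) and the replicate block called 0, with 1496 genes at an unadjusted p under 0.05. Leaving out a library gave 0 to 890 calls, 0 for every library but WT replicate 3, with 2441 to 3007 genes at an unadjusted p under 0.05. Of the pathway genes 3 were called, against 0 by limma-voom, 13 with array weights, 0 with the replicate block and 0 to 6 with a library left out. The block and the left-out libraries also leave fewer libraries or residual degrees of freedom, and the cause of these changes was not tested.

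The log2 difference of Ccnb1 changed sign, to -0.10 with the replicate block and to between -0.11 and 0.21 with a library left out. No other of the 10 genes changed sign under any alternative. The within-family shares kept their direction with each library left out and with reads not divided by length. At GV the log2 difference of Wee1 lay between 1.53 and 2.001 and that of Cdc25c between 0.96 and 1.12 with a library left out. Replicate numbers 2 and 3 are shared by the MII groups, and the deviations of same-numbered libraries from their group means correlated at 0.01 and -0.10. These values gave no sign that the numbers pair the samples, and so few of them cannot exclude it.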
